A study of Homo sapiens with 64 samples.

Results

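SNORD17 is a box C/D small nucleolar RNA (snoRNA), and SNX5 is the protein-coding gene whose intron holds it. Both were followed by symbol through all 3 count tables of the series, and SNX5 also through the SLAM-seq files, where SNORD17 has no line. They are 2 of the 26364 gene symbols in the C4-2 and RIP tables and of the 25207 in the HEK293T tables. SNORD17 was chosen by its low CPM with siFBL in HEK293T at 0 h, and SNX5 as its host, so the 0 h values of HEK293T are described here without a test.

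Box C/D snoRNAs carry a box C motif near the 5′ end and a box D motif near the 3′ end, and they guide 2′-O-methylation of ribosomal and other RNAs by base pairing. Each one sits in a particle with the methyltransferase FBL (fibrillarin) and the core proteins NOP56, NOP58 and SNU13, the last named NHP2L1 in these tables. Most human snoRNAs are cut out of introns of host genes after splicing, and the particle that forms on them protects them from exonucleases. SNX5 is a sorting nexin with a membrane-bending BAR domain that pairs with SNX1 or SNX2 on endosomes and returns cargo proteins to the Golgi or the cell surface.

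The sequence of SNORD17 is shown because its boxes are what ties it to the FBL particle. It is the GENCODE 29 transcript of SNORD17, which lies at chr20:17962710-17962946, GRCh38, minus strand. The capitals mark box C (ATGATGA, bases 6 to 12 from the 5′ end) and box D (CTGA, bases 230 to 233).
SNORD17: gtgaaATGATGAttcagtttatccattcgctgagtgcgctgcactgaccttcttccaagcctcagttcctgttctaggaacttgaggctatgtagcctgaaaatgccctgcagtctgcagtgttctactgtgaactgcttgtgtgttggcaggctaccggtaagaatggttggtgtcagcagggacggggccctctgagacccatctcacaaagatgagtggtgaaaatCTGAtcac
At 237 nt it is long for its class. The 275 SNORD genes of the annotation have a median length of 82 nt, and only 3 (SNORD3A, SNORD3B-1 and SNORD3C) are longer. A box C spelled ATGATGA or GTGATGA within the first 15 bases together with a CTGA within the last 15 was found on the RNA strand of 170 of the 275 (61.8%). No other annotated gene transcript shared a run of 30 bases with SNORD17; the rest of the genome was not searched.

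SNX5 spans chr20:17941597-17968980 on the minus strand of the same build. SNORD17 lies in its intron between exons 1 and 2 of the transcript SNX5-201, an intron of 11337 nt, 5428 nt downstream of exon 1 and 5672 nt upstream of exon 2. Of the transcripts of the annotation, 7 of SNX5 and 1 of its same-strand neighbour OVOL2 carry SNORD17 in an intron and 0 place an exon over it. MGME1, which encodes a mitochondrial nuclease, starts beside the SNX5 promoter on the plus strand. The labels give polyA RNA as the molecule and do not state whether counting used strand. Reads of mature SNORD17 therefore cannot be told apart from reads of SNX5 RNA that still holds the intron.

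The series examined how long mRNAs last when FBL is depleted. HEK293T, a human embryonic kidney line, received a control siRNA (siCTRL), siFBL or siNOP56 (written shNOP56 in the text of the series) and was collected at 0, 6, 12 and 24 h, with 2 libraries per siRNA and hour and 24 in all. C4-2, a human prostate cancer line, received siCTRL or siFBL and was collected at 0, 3, 6 and 12 h, with 2 libraries per group and 16 in all. In RNA immunoprecipitation (RIP), RNA held by an antibody to FBL in C4-2 cells with siCTRL was compared with input, 2 libraries of each. SLAM-seq, which reads S4U-labelled RNA as T>C conversions, covered C4-2 with siCTRL or siFBL in 16 libraries: cells were fed 100 µM S4U for 24 h and then 10 mM uridine, and were collected at 0, 6, 12 and 24 h. How the count time courses stopped new transcription, and the siRNA sequences, are not given in the labels used here. The 4 nanopore libraries were not analysed here. Nothing says that the libraries of a group came from separate cultures, so p-values measure a spread that may be technical.

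Total counts ran from 22.9 to 33.3 M per RIP library, from 79 to 106 M in C4-2 and from 16 to 19.9 M in HEK293T, and mapped SLAM-seq reads from 14.3 to 60.3 M. All 9 prostate luminal markers averaged above 1 CPM (counts scaled to the library's total and TMM factor) in C4-2 and all 6 HEK293T markers did in HEK293T. That cut did not separate the lines, since 5 of the 9 also passed it in HEK293T and 3 of the 6 in C4-2. Summed over its list, a library held 5740 to 9700 CPM of prostate markers in C4-2 and 20.9 to 61.1 in HEK293T. For HEK293T markers the sums were 231 to 359 CPM in HEK293T and 20.4 to 96.1 in C4-2. Of 4 fibroblast markers only COL1A1 did, in both lines. FBL checked the siRNA labels: it ran from 265.4 to 387.8 CPM over the 8 siCTRL and from 0.601 to 3.63 CPM over the 8 siFBL libraries of C4-2, and from 302.9 to 485.0 against 7.19 to 17.7 CPM in HEK293T. NOP56 ran from 146.0 to 205.8 CPM with siCTRL and from 49.9 to 92.0 CPM with siNOP56. In bulk libraries such as these, fewer cells and less RNA per cell cannot be told apart.

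SNORD17 was among the RNAs most enriched by the FBL antibody, and SNX5 was enriched too, by less. SNORD17 read 4.50 and 2.97 CPM in the 2 inputs (145 and 94 counts) and 150.9 and 144.2 CPM in the 2 RIP libraries (3624 and 3433 counts). SNX5 read 112.1 and 114.2 CPM in input and 553.5 and 485.7 CPM in RIP. The kinds of library did not overlap for either gene, and the spread within each kind was small beside the step between them. How many of all genes also lacked overlap was not counted, here or in the comparisons below, so non-overlap is only a description. SNORD17 was higher in RIP by 5.30 ± 0.10 on the log2 scale (SE, 2 against 2 libraries), which is 39.5-fold, with an adjusted p of 2.93e-27 in edgeR's quasi-likelihood test. SNX5 was higher by 2.20 ± 0.07 (4.59-fold, adjusted p 8.24e-23).

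Being called says little in this comparison, since 82.9% of the 14967 genes tested passed the threshold of 0.05, 39.9% as higher and 43% as lower. The size sets the pair apart more: 19 genes had a larger log2 difference than SNORD17 and 712 a larger one than SNX5. RIP libraries differ in composition from input, and the scaling (TMM, which centres the bulk of the genes) moved the values. With library totals alone, chosen as an alternative after seeing the data, SNORD17 was higher by 4.36 and SNX5 by 1.26, the median gene moved by -0.94, and 21.1% instead of 48.1% of the calls were higher.

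**Figure D1:**
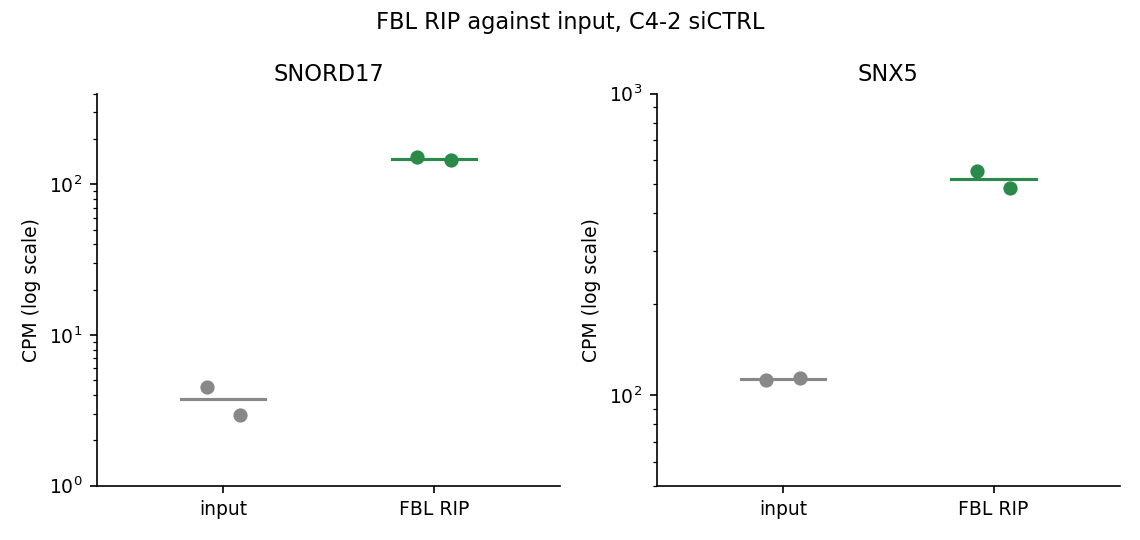
CPM of SNORD17 (left) and SNX5 (right) on log axes in the 2 input and the 2 FBL RIP libraries of C4-2 cells with siCTRL; points are libraries and lines their means. SNORD17 stands at 144.2 and 150.9 CPM in RIP against 2.97 and 4.50 in input, and SNX5 at 485.7 and 553.5 against 112.1 and 114.2.

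Among the SNORD RNAs SNORD17 stood near the top. Of the 263 other SNORD symbols in the table, 170 had a count and 101 passed the filter on low counts. All 101 were called higher (99 with library totals alone), beside 39.9% of all genes. Their median log2 difference was 4.25, against -0.11 over all genes tested. That filter can be passed through the RIP libraries alone, so the members that passed are a biased set. Without the filter 120 of the 170 were called higher and 0 lower, with a median of 3.86. That fit called 5913 higher and 6270 lower of all 20727 genes. SNORD17 came 12th of the 102 in that order. SNORD49A, SNORD45C and SNORD20 stood just above it at 5.39, 5.37 and 5.36, and SNORD116-13, SNORD32A and SNORD35A just below it at 5.30, 5.27 and 5.27, gaps smaller than the standard errors of 0.10 to 0.28. The counts behind SNORD17 were deeper than for most: it was the third most counted SNORD RNA in input and took 5.38% of all SNORD counts there.

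SNX5 had the highest RIP value among the host mRNAs. Of the 19 other hosts of a fixed set of intronic snoRNAs, 5 were called higher in RIP and 12 lower, beside 39.9% and 43% of all genes. With library totals alone 1 was called higher and 17 lower (median -1.25), beside 2783 higher and 10433 lower of all 14967 genes. In the main fit the median of the other hosts was -0.31, and the highest of them, NOP56 at 1.83, was below the 2.20 of SNX5. The gap between snoRNA and host was accordingly narrow for this pair: SNORD17 exceeded SNX5 by 3.10 on the log2 scale, whereas the other 26 pairs had a median gap of 4.90 (2.38 to 7.25), and 3 of them (SNORD53 in WDR43, SNORD21 in RPL5 and SNORD110 in NOP56) had a smaller one. These are descriptions of 1 fit, with no test of SNX5 against the other hosts.

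In C4-2 cells, FBL knockdown lowered SNORD17 far more than its host. With siCTRL, SNORD17 read 2.05 and 1.46 CPM at 0 h, 2.84 and 2.07 at 3 h, 1.80 and 2.73 at 6 h and 5.05 and 3.95 at 12 h. With siFBL it read 0.435 and 0.139, 0.0881 and 0.0393, 0.320 and 0.475, and 0.324 and 0.173 CPM at the same hours, from 4 to 46 counts a library. Every siFBL library was below every siCTRL library, and the siFBL mean was 16.4%, 2.60%, 17.5% and 5.52% of the siCTRL mean at 0, 3, 6 and 12 h. Averaged over the hours, SNORD17 fell by 3.63 on the log2 scale (SE 0.28, 12.4-fold, adjusted p 5.72e-08, edgeR), and 18 of the 23437 genes tested had a lower value. Of all genes tested, 42.8% were called in this comparison, 24.8% lower and 18% higher.

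SNX5 fell by about the same amount at every hour. With siCTRL it read 102.6 and 90.6 CPM at 0 h, 103.9 and 111.2 at 3 h, 110.8 and 112.2 at 6 h, and 127.7 and 122.7 at 12 h. With siFBL the values were 48.8 and 47.3, 56.8 and 46.9, 51.4 and 55.0, and 70.8 and 53.4 CPM, so that no siFBL library reached any siCTRL library. The siFBL mean was 49.8%, 48.2%, 47.7% and 49.6% of siCTRL in the order of the hours. The mean difference was -1.03 ± 0.08 (SE, 2.05-fold lower, adjusted p 3.08e-08), and 1221 genes had a lower value.

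Hour by hour, SNORD17 differed by -2.61 at 0 h (adjusted p 0.0051), -5.24 at 3 h (5.07e-05), -2.51 at 6 h (0.00584) and -4.18 at 12 h (0.000113). The share of genes called at these hours was 8.48%, 11.9%, 9.05% and 13.4%. The 0 h call rested on single libraries: without siCTRL library A the adjusted p was 0.0547 and without siFBL library B it was 0.055, and the 6 h call was lost without siCTRL library B (0.0618). SNX5 differed by -1.01, -1.05, -1.07 and -1.01 at the 4 hours (adjusted p 0.000452, 0.000287, 0.000267 and 0.000304), and these calls held without any 1 library.

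**Figure D2:**
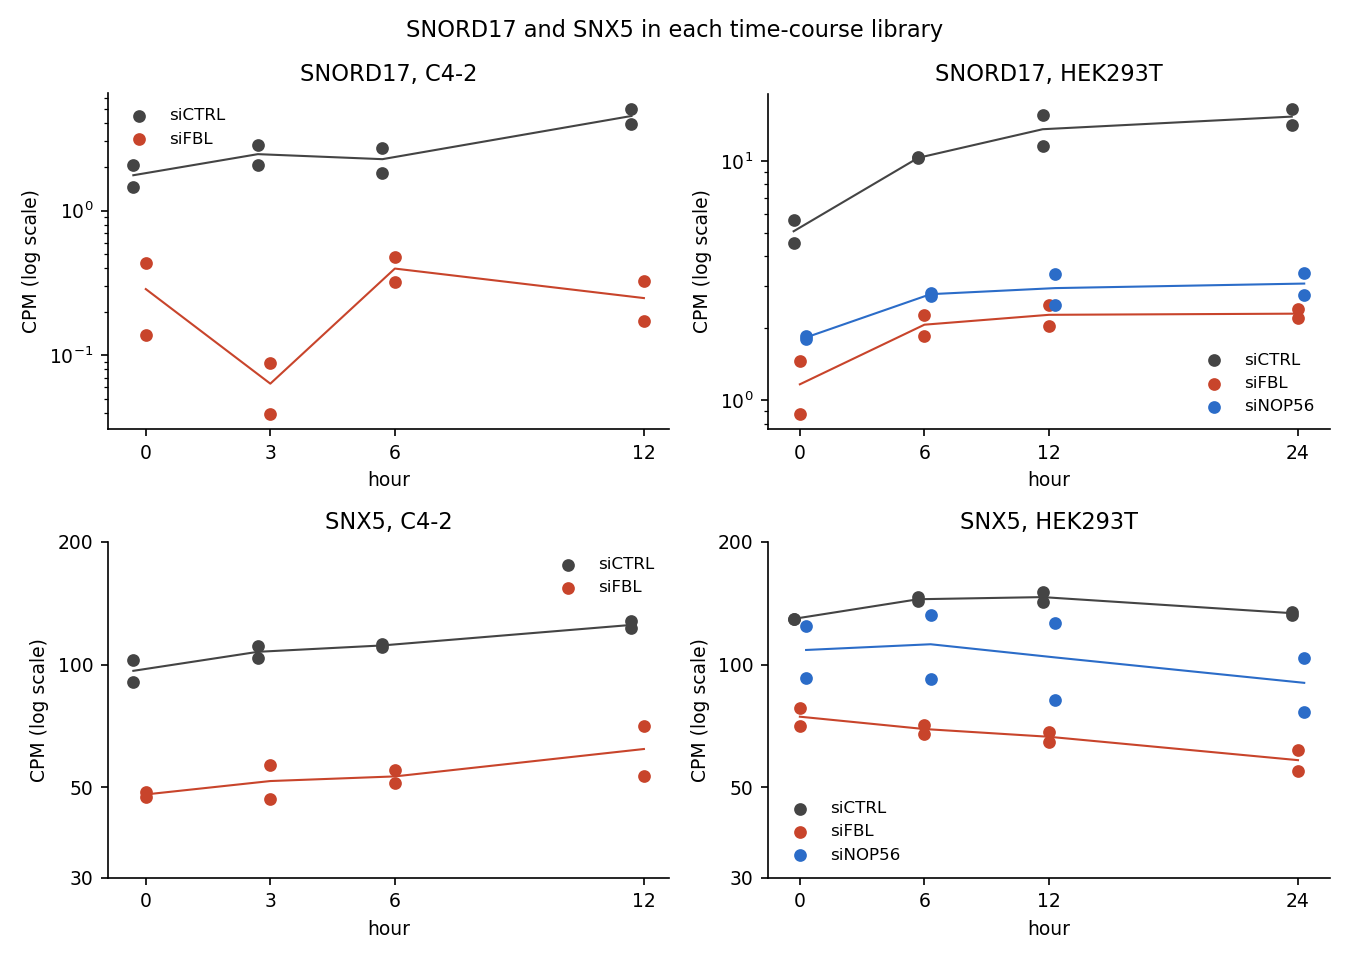
CPM of SNORD17 (top) and SNX5 (bottom) on log axes against the hour, in C4-2 (left) and HEK293T (right); points are libraries, lines join the means of 2 libraries, and colours are the siRNAs. The siCTRL points lie above the knockdown points at each hour for both genes, by 12.4-fold for SNORD17 and 2.05-fold for SNX5 on average in C4-2.

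The median of the other SNORD RNAs was lower as well. Of 263 other SNORD symbols in the C4-2 table, 229 had a count and 114 passed the filter, which many snoRNAs could pass only through siCTRL libraries. Of the 114, 47 were called lower and 0 higher, beside 24.8% and 18% of all genes. Their median was -1.70 against 0.10 over all genes. Without the filter, 47 of the 229 were called lower and 1 higher, with a median of -0.76 against 0.12 over all genes. That fit called 5810 lower and 4154 higher of all 25333 genes, so its count called lower is near the background. SNORD16 (-6.10), SNORD88A (-4.32), SNORD63 (-4.30) and SNORD37 (-4.29) had the largest differences among those called. SNORD17 was the third most counted of the 230 SNORD RNAs in siCTRL and took 6.37% of their counts, and its SE of 0.28 was below the 0.60 to 1.18 of those 4.

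SNX5 had the lowest value among the hosts. Of the other 19 hosts, 13 were called lower and 0 higher, beside 24.8% and 18% of all genes, with a median of -0.28. These values were 8, 1 and -0.12 when scaled to the ribosomal protein mRNAs, an alternative chosen after seeing the data. That scaling called 4129 lower and 6291 higher of all 23437 genes. In the main fit none of the other hosts was as low as SNX5, the nearest being RPL13A at -0.78. SNORD17 differed from SNX5 by -2.60 on the log2 scale, and the other 34 pairs of snoRNA and host had a median of -1.17, with SNORD96A in GNB2L1 at -3.78 and SNORD110 in NOP56 at -2.63 the only pairs below. Among the particle's own mRNAs, FBL fell by 7.45, NOP58 by 0.73 and NOP56 by 0.53, while NHP2L1 differed by -0.13 with an adjusted p of 0.114.

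In HEK293T cells both genes were lower with siFBL, and SNORD17 was lower with siNOP56 by nearly as much. SNORD17 with siCTRL read 4.52 and 5.64 CPM at 0 h, 10.2 and 10.3 at 6 h, 11.5 and 15.6 at 12 h and 14.1 and 16.5 at 24 h. With siFBL it read 0.877 and 1.46, 1.86 and 2.28, 2.51 and 2.04, and 2.20 and 2.40 CPM, and with siNOP56 1.86 and 1.80, 2.74 and 2.82, 3.39 and 2.50, and 3.40 and 2.74. Neither knockdown overlapped siCTRL at any hour, and counts were 102 to 270 in siCTRL, 19 to 42 in siFBL and 38 to 55 in siNOP56 libraries. SNORD17 was the most counted SNORD RNA of this table, with 26.3% of all SNORD counts in siCTRL.

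At 0 h, the hour that chose it, SNORD17 differed by -2.12 with siFBL and by -1.47 with siNOP56, and SNX5 by -0.80 and -0.25; 1.74% and 0.187% of all genes were called there, and nothing is read from these values. Over the mean of 6, 12 and 24 h, which the choice did not use, SNORD17 fell by 2.54 with siFBL (SE 0.14, 5.80-fold, adjusted p 1.37e-08, edgeR) and by 2.13 with siNOP56 (SE 0.14, 4.39-fold, 2.54e-07). The share of the 14939 genes called was 39.7% with siFBL and 27% with siNOP56, and 18.6% and 12.3% of the genes were called lower and 21.1% and 14.7% higher. Only 24 genes had a lower value than SNORD17 with siFBL and 12 with siNOP56. The 2 comparisons share their siCTRL libraries, so they are not independent of each other. The siFBL replicates deviated alike at 0 h and at these hours over all genes (Pearson r across genes 0.626 to 0.677). The later hours of siFBL are therefore not independent of the hour that chose SNORD17.

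SNX5 with siCTRL read 129.7 and 129.4 CPM at 0 h, 143.1 and 146.4 at 6 h, 142.4 and 150.6 at 12 h and 134.9 and 132.7 at 24 h. With siFBL it read 78.4 and 70.7, 71.3 and 67.8, 68.3 and 64.8, and 54.8 and 61.8 CPM. The siFBL libraries were all below the siCTRL libraries, and their mean was 48.0%, 45.4% and 43.6% of siCTRL at 6, 12 and 24 h. The mean difference over these hours was -1.13 ± 0.12 (SE, 2.19-fold lower, adjusted p 5.47e-06).

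With siNOP56 the drop of SNX5 was shallower and the 2 replicates disagreed. Replicate 1 read 92.7, 92.1, 81.8 and 76.5 CPM at 0, 6, 12 and 24 h and replicate 2 read 124.7, 132.4, 126.6 and 104.0, from 1.35-fold to 1.55-fold higher at each hour. Both stayed below siCTRL at each hour. The mean difference over 6, 12 and 24 h was -0.48 ± 0.12 (SE, 1.39-fold lower, adjusted p 0.00845), and it was -0.42 with an adjusted p of 0.0415 when libraries were scaled to the ribosomal protein mRNAs, an alternative chosen after seeing the data. The replicates of siNOP56 also deviated alike between hours over all genes (Pearson r across genes 0.439 to 0.512, a description), and so did those of siFBL (0.626 to 0.677), whereas those of siCTRL did not (-0.0134 to 0.00792). The edgeR test of both knockdowns treats the hours as independent libraries.

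At single hours, SNORD17 differed with siFBL by -2.31, -2.57 and -2.73 at 6, 12 and 24 h (adjusted p 0.000132, 3.38e-05 and 1.32e-05), where 6.63%, 10.9% and 15.1% of genes were called. With siNOP56 it differed by -1.89, -2.20 and -2.31 (0.00234, 0.000518 and 0.000227), where 0.683%, 1.53% and 5.31% were called; the 6 h call was lost without siCTRL replicate 2 (0.0619) and without siNOP56 replicate 2 (0.0952). SNX5 with siFBL differed by -1.06, -1.14 and -1.20 (0.00918, 0.00383 and 0.00182). Its 6 h call was lost without siCTRL replicate 1 (0.0658), siCTRL replicate 2 (0.0807) or siFBL replicate 2 (0.0888), and its 12 h call without siFBL replicate 2 (0.0528). SNX5 with siNOP56 passed the test at none of the hours: the differences were -0.37, -0.49 and -0.57 with adjusted p 0.423, 0.226 and 0.121.

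Fewer of the other SNORD RNAs were deep enough to test in HEK293T. Of 261 other SNORD symbols, 125 had a count and 49 passed the filter. With siFBL 8 of the 49 were called lower and 1 higher, beside 18.6% and 21.1% of all genes, so the count called lower is near the background. The median was -0.26 against 0.01 over all genes, and the calls were led by SNORD23 (-3.86), SNORD96A (-2.48), SNORD47 (-2.47) and SNORD32A (-2.10). With siNOP56 9 were called lower and 1 higher, beside 12.3% and 14.7% of all genes, with a median of -0.40. These calls were led by SNORD23 (-3.92), SNORD32A (-3.81), SNORD101 (-2.35) and SNORD47 (-1.77). SNORD4A was the 1 called higher in both, at 0.89 and 0.78. The median depended on which libraries set the filter. In a fit of only the libraries compared 19 were tested, and 6 were lower and 1 higher in each knockdown. Their medians were -0.67 with siFBL and -0.44 with siNOP56. The share of all genes called in that fit is not given here, so nothing is read from its counts. Between the lines at 6 and 12 h, 6 of 62 other SNORD RNAs were called, all lower in C4-2. Of all genes 26.8% were called there in either direction, so this count is no result about the SNORD RNAs. Their median was -1.16 against 0.11 over all genes. Without the filter 7 of 227 were called, with a median of -0.14. HEK293T libraries were shallower, and the part of depth in these counts was not tested.

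SNORD17 was lower than its host by more than most pairs were in both knockdowns. SNORD17 minus SNX5 was -1.40 with siFBL, where the other 17 pairs had a median of 0.28 and SNORD96A in GNB2L1, SNORD101 in RPS12 and SNORD12B in ZFAS1 were lower. With siNOP56 it was -1.66 against a median of 0.32, with SNORD101 in RPS12, SNORD32A in RPL13A and SNORD12B in ZFAS1 lower. Of the 19 other hosts 9 were called lower and 3 higher with siFBL, beside 18.6% and 21.1% of all genes. With siNOP56 5 were lower and 3 higher, beside 12.3% and 14.7% of all genes. Of those 5, 1 was NOP56, the target of that siRNA, so its call follows from the design. SNX5 was not the lowest host in HEK293T. With siFBL, RPL13A at -2.13 and RPL3 at -1.40 were below its -1.13. With siNOP56, RPL13A at -1.51 and EIF4A2 at -1.22 were among those below its -0.48. With ribosomal protein scaling 7 of the other hosts were called lower and 8 higher with siFBL. The calls over all genes also shifted towards higher under that scaling. NOP56 fell by 1.31 with siNOP56, where FBL differed by 0.20 (adjusted p 0.403), and NOP56 differed by 0.18 with siFBL (adjusted p 0.277, but called at 0.35 with ribosomal protein scaling and at 0.19 in a fit of only the libraries compared), where FBL fell by 5.13.

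**Figure D3:**
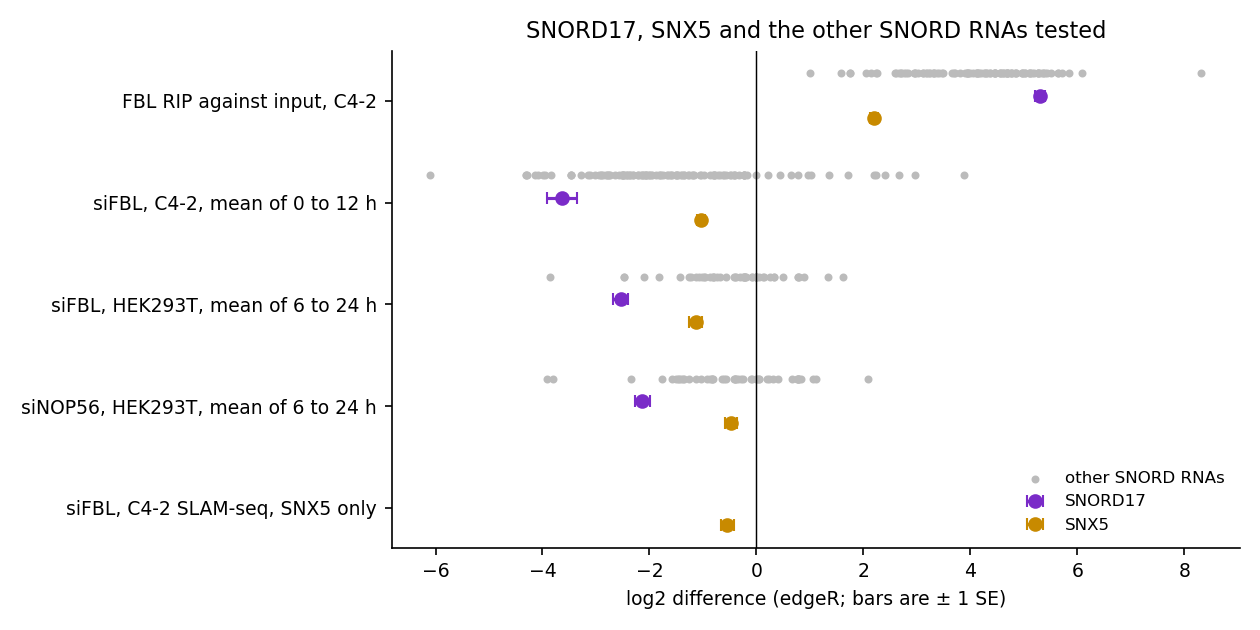
Log2 differences of SNORD17 (purple) and SNX5 (gold) with bars of 1 SE from edgeR in 5 comparisons, and of the other SNORD RNAs tested (grey points, no error shown). SNORD17 lies at 5.30 in RIP and between -3.63 and -2.13 in the knockdowns; SNX5 lies at 2.20 in RIP and between -1.13 and -0.48 in the knockdowns.

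The ratio of SNORD17 to SNX5 within a library needs no scaling between libraries. In C4-2 it was 16.1 to 39.6 SNORD17 reads per 1000 SNX5 reads in the 8 siCTRL libraries (median 22.1) and 0.838 to 8.90 in the 8 siFBL libraries (median 3.91), with no overlap. In HEK293T it was 34.9 to 124.2 with siCTRL (median 76.2), 11.2 to 40.2 with siFBL (median 32.6) and 14.5 to 44.5 with siNOP56 (median 23.8); these ranges overlapped only through the 0 h siCTRL libraries, and within each hour they did not. In RIP it was 272.6 and 296.9, against 40.11 and 25.97 in input.

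Permuting siRNA labels within hours gave an exact test of these ratios. In C4-2 the mean log2 ratio was lower with siFBL by 2.64 (6.25-fold, two-sided exact permutation p 0.00154, adjusted 0.00616 over 4 tests of this kind). Over 6, 12 and 24 h in HEK293T it was lower by 1.39 with siFBL (2.62-fold) and by 1.63 with siNOP56 (3.09-fold), each with an exact permutation p of 0.00926, adjusted 0.0123. Each of these p-values is the smallest that the 1296 or 216 permutations can give. The permutation takes the hours of a replicate as independent, although the siFBL and siNOP56 replicates of HEK293T deviated alike between hours over all genes. With the 2 replicates of each siRNA as the units, an exact two-sided test of 2 against 2 cannot go below 0.333. In all 3 knockdown comparisons the ratios of both knockdown libraries lay below those of both siCTRL libraries at every hour tested.

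**Figure D4:**
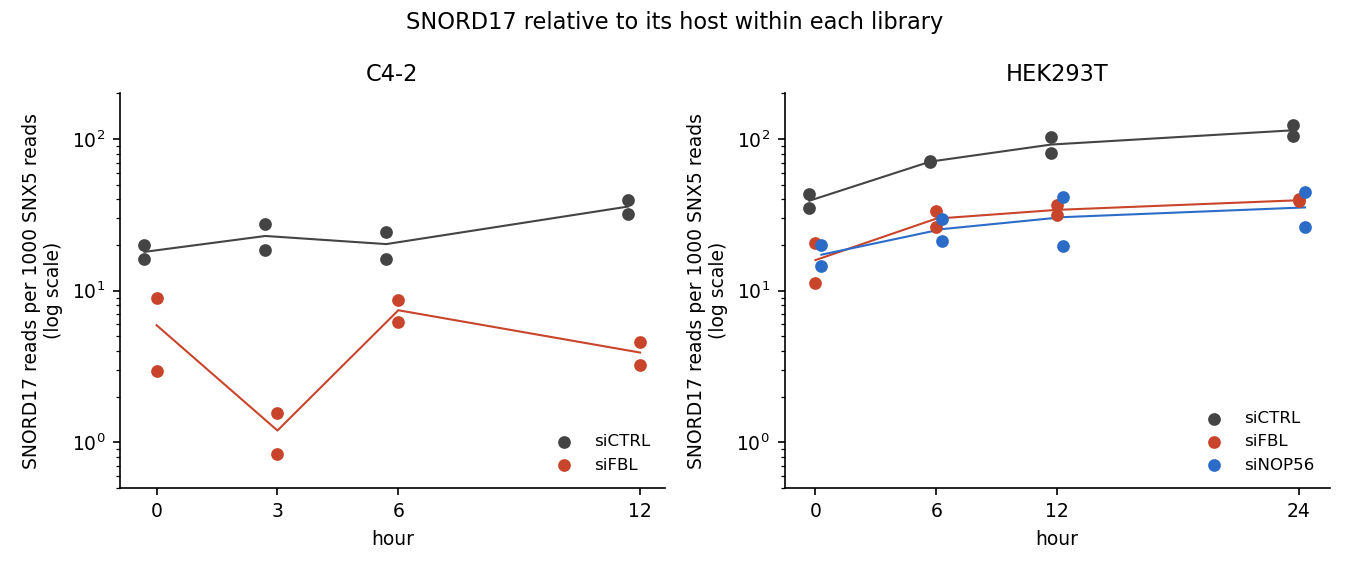
SNORD17 reads per 1000 SNX5 reads on log axes against the hour in C4-2 (left) and HEK293T (right); points are libraries, lines join means of 2 libraries, colours are siRNAs. The siCTRL ratios run from 16.1 to 39.6 in C4-2 and from 34.9 to 124.2 in HEK293T and lie above the knockdown ratios at each hour.

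Between the cell lines, the siFBL difference did not pass the test for either gene. At 6 and 12 h, the hours shared beside 0 h, the difference in C4-2 minus that in HEK293T was -0.69 ± 0.37 (SE) for SNORD17 with an adjusted p of 0.181 and 0.27 ± 0.18 for SNX5 with an adjusted p of 0.284. Of the 17634 genes tested, 26.8% were called in this comparison. With these standard errors a difference of the size seen could not be told from 0, which does not show that the lines respond alike.

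SNX5 had no slope on the hour that passed the test in HEK293T. For SNORD17 the slopes over 24 h were 0.06 ± 0.01 log2 units per hour (SE) with siCTRL, 0.03 ± 0.02 with siFBL and 0.03 ± 0.01 with siNOP56; they use the 0 h libraries that chose it and are a description with no test. SNX5 changed by 0.00, -0.01 and -0.01 per hour with adjusted p 0.966, 0.126 and 0.193, while 50.1%, 51.6% and 50.8% of genes were called for a slope. In C4-2 the slope of SNORD17 was 0.11 ± 0.05 with siCTRL (adjusted p 0.135) and 0.02 ± 0.06 with siFBL (0.835). SNX5 had a slope of 0.03 ± 0.01 with siCTRL and with siFBL (adjusted p 0.0327 and 0.0283), where 34.1% and 35.1% of genes were called.

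These slopes are relative to the other RNAs of a library and their direction depends on the scaling. Scaled to the ribosomal protein mRNAs, an alternative chosen after seeing the data, the C4-2 slopes of SNX5 were -0.06 with siCTRL (adjusted p 0.00019) and -0.06 with siFBL (0.000455), and the HEK293T slopes were -0.04, -0.06 and -0.05 (0.00771, 0.0012 and 0.00138). The C4-2 call with siCTRL was also lost without either 0 h library (0.0559 and 0.146), 3 h library A (0.0546) or either 12 h library (0.146 and 0.0824), and that with siFBL without 0 h library B (0.075) or 12 h library A (0.456). The slope of SNX5 with siFBL differed from that with siCTRL by 0.00 ± 0.01 (SE) in C4-2 and by -0.02 ± 0.01 in HEK293T, and that with siNOP56 differed by -0.01 ± 0.01, each with an adjusted p of 1. Few genes differed in slope at all: edgeR called 1 gene in C4-2 (0.00427%) and 0 in either comparison of HEK293T (0%). Before adjustment, 1117, 449 and 197 genes (4.77%, 3.01% and 1.32%) had an edgeR p below 0.05. These shares are no more than that threshold gives when no gene differs. DESeq2 called 18, 6 and 3 genes after adjustment.

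SLAM-seq counted SNX5 at its main 3′ end, chr20:17941597-17942356 on the minus strand of hg38, an interval of 760 nt with 22419 reads over the 16 libraries. The hour in the file headers differed from the labelled hour in 12 of the 16 libraries, whereas the siRNA was the same in all, so only the siRNA was compared. Over 1 interval per gene, the T>C share was 58.4% and 10.0% in the 2 siCTRL libraries labelled 0 h. It was 58.4% and 58.3% in the 2 siCTRL libraries with a 0 h header. Libraries of the same siRNA and header hour had like shares throughout, and those of the same siRNA and labelled hour did not. The main fit used the labelled hours. Reads of SNX5 ran from 41.3 to 62.3 RPM (scaled to the mapped reads of the library) with siCTRL (median 51.1) and from 25.3 to 48.8 with siFBL (median 36.9). The 2 siFBL libraries of each labelled hour were below the 2 siCTRL libraries of that hour. The difference was -0.54 ± 0.13 (SE), which at an adjusted p of 0.0627 missed the threshold in the edgeR fit with labelled hours, where 0.929% of 14207 genes were called. With DESeq2 the adjusted p was 0.00501, without the filter on low counts 0.0357, and with the hours of the headers 0.000141, at differences of -0.54, -0.54 and -0.55.

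The T>C share of SNX5 followed the labelling of its library. It ran from 14.7% (95% exact binomial interval 12.8% to 16.8%) to 80.8% (78.5% to 83.0%) with siCTRL and from 7.59% (6.31% to 9.04%) to 69.1% (65.8% to 72.3%) with siFBL, intervals that cover counting error only. Over 1 interval per gene the share of a library ran from 10.0% to 58.4% and from 5.01% to 54.5%. Relative to its library, the SNX5 share differed by -0.12 on the log2 scale between siFBL and siCTRL (two-sided exact permutation p 0.326 over 1296 permutations, adjusted 0.326, smallest possible 0.00154). The size rested on single libraries: it was -0.022 without siFBL 24 h replicate 2 (exact permutation p 0.806) and -0.2192 without siFBL 24 h replicate 1 (0.091). The exact permutation p was 0.235 with the hours of the headers and 0.0787 with both SNX5 intervals summed. Arranged by the hours of the headers, as a description, the mean SNX5 share was 77.0%, 35.8%, 24.1% and 15.1% at 0, 6, 12 and 24 h with siCTRL and 64.5%, 26.1%, 19.6% and 7.85% with siFBL. Over 1 interval per gene the mean share was 58.4%, 33.9%, 21.5% and 10.1% with siCTRL and 54.4%, 29.6%, 18.2% and 5.09% with siFBL.

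**Figure D5:**
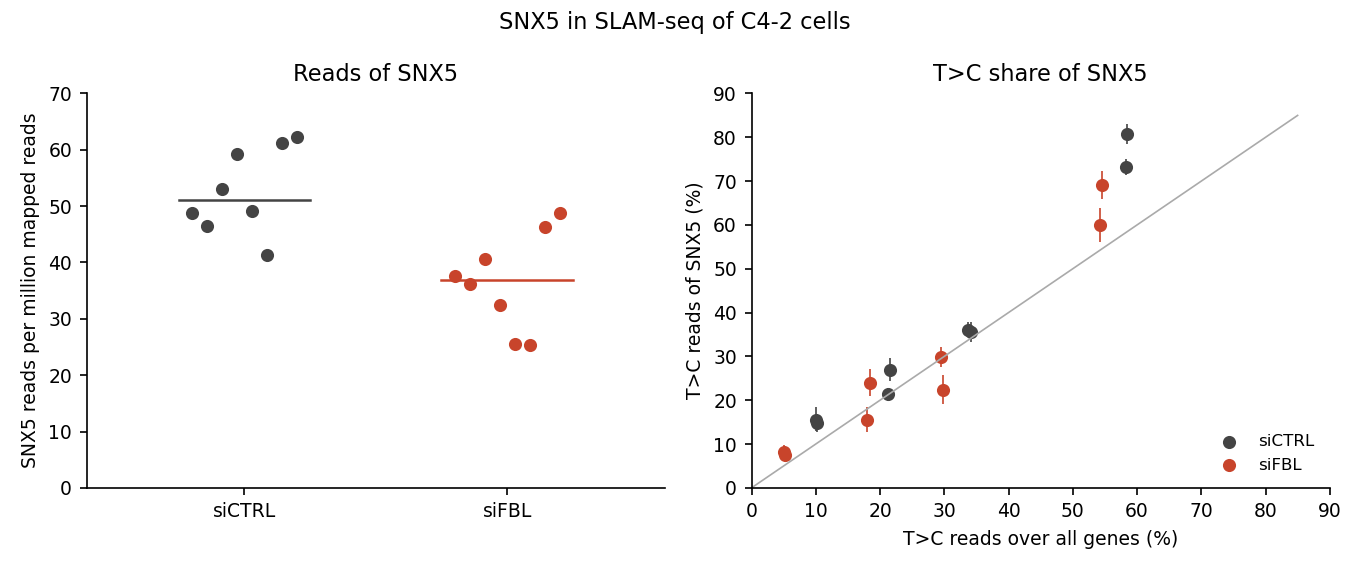
Left: SNX5 RPM (reads scaled to mapped reads) in the 8 siCTRL and 8 siFBL SLAM-seq libraries, with medians as lines at 51.1 and 36.9. Right: percentage of SNX5 reads with a T>C conversion against that over 1 interval per gene of the same library, with 95% exact binomial intervals as bars and the line of equal shares in grey. SNX5 points run from 7.59% to 80.8%. The median log2 ratio of the SNX5 share to the library share was 0.32 with siCTRL and 0.24 with siFBL, above that line.

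The endosomal partners of SNX5 are described by how many were called in each direction, beside the shares of all genes called. The list held 21 genes: other sorting nexins, retromer subunits, cargo proteins and the WASH complex, some of which (FAM21A, FAM21C and WASH1) have near-identical copies that make their counts uncertain. In RIP, where 39.9% of all genes were called higher and 43% lower, 10 were called higher and 10 lower (median 0.25). With library totals alone 5 were higher and 15 lower (median -0.68), beside 2783 higher and 10433 lower of all 14967 genes. Both sets of counts are near their background. The calls of the main fit were led by FAM21C (2.76), VPS29 (-2.66), FAM21A (2.54) and SNX3 (-2.32). VPS29 and SNX3 act in retromer sorting and FAM21A and FAM21C in the WASH complex. In C4-2 siFBL 5 were lower and 5 higher (median -0.04), beside 24.8% and 18% of all genes. That is near the background and no result about the partners. With ribosomal protein scaling 4 were lower and 9 higher (median 0.13), beside 4129 lower and 6291 higher of all 23437 genes. Among those called in the main fit, SNX32, a close relative of SNX5, rose by 2.44 and WASH1 fell by 1.26. TFRC, the transferrin receptor, fell by 0.73 and SEMA4C, a cargo of this route, fell by 0.70.

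In HEK293T siFBL 2 of the 21 partners were lower and 11 higher (median 0.31), beside 18.6% and 21.1% of all genes, and SNX2, a partner of SNX5 in the dimer, rose by 1.03, IGF2R, the classical cargo receptor, by 0.90 and CCDC53 of the WASH complex by 0.63, while TFRC fell by 0.66. In siNOP56 3 were lower and 7 higher (median 0.13), beside 12.3% and 14.7% of all genes, with SNX2 up by 0.70, KIAA1033 and FAM21C of the WASH complex up by 0.65 and 0.42, and TFRC down by 0.63. With ribosomal protein scaling 0 were lower and 13 higher with siFBL, and 1 lower and 7 higher with siNOP56. The calls of TFRC were lost (edgeR adjusted p 0.0939 and 0.0528). With siFBL the calls over all genes also shifted towards higher under that scaling. In SLAM-seq 0 of 20 measured partners were called by edgeR, where 0.929% of all genes were, so nothing is read from that count.

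The chromosomal neighbours bear on how the SNX5 counts were made, since strand is not stated. In C4-2 siFBL, MGME1 fell by 0.84 (adjusted p 1.35e-06) and OVOL2 by 0.79 (0.000247), while BANF2, at 0.00 to 0.161 CPM on average in a group, was called higher by 2.36 (0.0399) on very few reads. In HEK293T, MGME1 differed by 0.24 with siFBL (0.381, and 0.0231 in a fit of only the libraries compared) and by -0.23 with siNOP56 (0.445), and OVOL2 had group means of 0.284 CPM or less. In RIP, where SNX5 was higher, MGME1 fell by 0.60 and OVOL2 by 0.89. Whether reads of these neighbours entered the SNX5 counts was not tested.

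Genes with the most similar course over the libraries were named by Pearson's r of log2 CPM, as a description. Over the 24 HEK293T libraries SNORD17 was most like RPL13A (r 0.974), LRP8 (0.963) and ASNS (0.962), and SNX5 came 632nd with r 0.717; SNX5 was most like C1orf95 (0.937), TERT (0.925) and GDPD1 (0.905). Over the 16 C4-2 libraries SNORD17 was most like SESTD1 (0.965), PWARSN (0.960) and SNORD116-4 (0.958), with SNX5 55th at 0.928, and SNX5 was most like MAD2L1 (0.993), CADPS2 (0.992) and MCM6 (0.992). These libraries share cell line, siRNA and scaling, so a high r is common among genes.

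In the order of levels, SNORD17 stood highest in C4-2 with siCTRL at 12 h (4.50 ± 0.78 CPM, SD, n = 2) and lowest with siFBL at 3 h (0.0637 ± 0.0345). The 6 h group of siCTRL overlapped both the 0 h and the 3 h group in range. The 0 h group (1.46 to 2.05 CPM) and the 3 h group (2.07 to 2.84) did not overlap each other. The 0, 6 and 12 h groups of siFBL overlapped in their ranges. In HEK293T it was highest with siCTRL at 24 h (15.3 ± 1.69) and lowest with siFBL at 0 h (1.17 ± 0.41), which is the group that chose it, so that place restates the choice, and the 12 and 24 h siCTRL groups overlapped. SNX5 was highest with siCTRL at 12 h in both lines (125.2 ± 3.54 CPM in C4-2, 146.5 ± 5.80 in HEK293T) and lowest with siFBL at 0 h in C4-2 (48.1 ± 1.08) and at 24 h in HEK293T (58.3 ± 4.98). In C4-2 the 4 siFBL groups of SNX5 overlapped in a chain of neighbours, and in HEK293T so did the 4 siNOP56 groups, whose highest also overlapped siCTRL at 0 h and whose lowest overlapped siFBL at 0 h.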

How the data were processed

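RNA-seq of the HEK293T and C4-2 time courses and of the FBL RIP was deposited as whole-number counts per gene symbol. The submitters' processing notes name TopHat2 2.1.1, HOMER, Trim Galore and slamdunk 0.4.3 and the builds hg38, GRCh38.p13 and hg19, with no role given, and no source used here gives the build or strand setting of the count tables. The SLAM-seq files, deposited by the authors as slamdunk tables per the file headers, hold read counts and T>C read counts per interval of hg38. They also hold, per the file headers, a conversion rate, which is the fraction of covered T positions read as C, and a read score scaled to mapped reads, which the authors' tool counts once in each interval a read overlaps.

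Genes were filtered (filterByExpr), scaled by TMM and tested with edgeR 4.0.16 (R 4.3.3, quasi-likelihood), 1 mean per siRNA and hour over all libraries of a cell line, with p-values adjusted by Benjamini-Hochberg over all genes tested and a threshold of 0.05. CPM are scaled by TMM, and the SE is the log2 difference over the square root of F. Ratios of SNORD17 to SNX5 took a pseudocount of 0.5 on both counts and an exact permutation test within hours. For SLAM-seq the interval with the most reads stood for a gene. In C4-2 a column name carries a replicate number but is not the title of a C4-2 sample, so its libraries are called A (number 1) and B (number 2). Named genes are the pair, FBL and NOP56, the called members of each list with the largest differences (at most 4), the 3 genes nearest in pattern and the 3 SNORD RNAs on either side in RIP; hosts and pairs named as lying beyond the values of the pair, the other particle proteins and the neighbours were named outside that limit, with their values seen. The members and lists were chosen with earlier results of these data known. The fits were tested on simulated data. The values of 1 further marker list are not reported here.

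Alternatives were DESeq2 1.42.0, RLE factors, no filter, a replicate block, a fit of only the libraries compared, a pseudocount of 5, each library left out in turn, the hours of the SLAM-seq headers and, added after seeing the data, library totals (RIP), a block by the numbers of the C4-2 column names and scaling to ribosomal protein mRNAs. Replicate numbers were checked as pairs by the correlation of deviations from group means: r was -0.017 to 0.101 in HEK293T, 0.0191 in RIP and 0.183 to 0.337 over the 4 SLAM-seq pairs. In SLAM-seq the siCTRL and siFBL libraries of the same labelled hour and number also had the same header hour. Numbers 1 and 2 of a labelled hour had different header hours, so r there cannot tell pairs from header hours.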

Additional observations from a re-analysis of the deposited data

Results flagged for a closer look

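SLAM-seq also listed reads in a second SNX5 interval that the main comparisons did not use, at chr20:17967688-17968044 (hg38, minus strand, 357 nt, 5336 reads in all). It is the 3′ end of short SNX5 transcripts and lies inside the intron that holds SNORD17, on the 5′ side of it. It had signal above the limit that a count of 0 allows in every library, from 68 to 1287 reads with siCTRL and from 96 to 319 with siFBL. Its T>C share ran from 14.8% to 96.4% with siCTRL and from 4.76% to 92.5% with siFBL. By the hours of the headers (0, 6, 12 and 24 h), its mean RPM (reads scaled to mapped reads) values were 24.6, 12.9, 8.17 and 5.16 with siCTRL and 14.3, 8.71, 5.51 and 3.58 with siFBL, and these values were not tested. Summed with the main interval, it gave a T>C share of SNX5 relative to the library that differed by -0.115 on the log2 scale between siFBL and siCTRL (two-sided exact permutation p 0.0787).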

How the results depend on the processing

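Of 573 values of the main results under an alternative, 535 kept their direction and their side of the threshold, and those that did not were slopes on the hour and the SLAM-seq reads. Scaled to the ribosomal protein mRNAs, the slopes of SNX5 were -0.0626 and -0.056 with siCTRL and siFBL in C4-2 and -0.0407, -0.0562 and -0.0542 with siCTRL, siFBL and siNOP56 in HEK293T, and that of SNORD17 with siFBL in C4-2 was -0.069. With each library left out in turn, the C4-2 slope ran from 0.0240 to 0.0324 (SNX5, siCTRL), from 0.0133 to 0.0432 (SNX5, siFBL) and from -0.00044 to 0.109 (SNORD17, siFBL). The difference of slopes in C4-2 ran from -0.107 to 0.00312 for SNORD17 and from -0.0161 to 0.0139 for SNX5, and the siCTRL slope of SNX5 in HEK293T from -0.00358 to 0.00122. SNX5 in SLAM-seq passed the test at -0.54 with DESeq2, -0.54 without the filter and -0.55 with header hours. The cause was not tested. The replicate block changed no call of the pair in HEK293T, RIP or SLAM-seq: SNX5 with siNOP56 was at -0.49 (adjusted p 0.00235, edgeR) and SLAM-seq SNX5 had an adjusted p of 0.0634. In C4-2 a replicate block by the number in the column names, added after seeing the data, put SNORD17 at -3.66 and SNX5 at -1.04 over the hours (adjusted p 2.83e-09 and 1.94e-09) and changed no call of the pair. It called 10493 genes against 10035. Same-numbered C4-2 libraries of the 2 siRNAs deviated with r of -0.141 to 0.0119, and those of 1 siRNA at 0 h and later hours with -0.0516 to 0.182, so they share only a number. A C4-2 fit of only the libraries compared is the same fit, and for C4-2 against HEK293T only the 16 libraries of that contrast were left out in turn. Counts of called genes moved by over 1.5 times in SLAM-seq (132 against 629 with DESeq2, 596 without the filter and 1655 with header hours), in C4-2 at 0 h (1988 against 3980 with DESeq2) and in HEK293T. At 0 h 260 were called with siFBL against 778 with DESeq2 and 861 with the block, and 28 with siNOP56 against 213, 140, 18 with RLE factors and 6 with ribosomal protein scaling. With siFBL at 6 h, 990 were called against 1633 with DESeq2 and 1981 with the block, and at 12 h 1630 against 2490 with the block. With siNOP56 at 6, 12 and 24 h, 102, 228 and 794 were called, against 428, 749 and 1311 with DESeq2, 388, 836 and 1485 with the block and 29, 87 and 243 with ribosomal protein scaling. That scaling moved the share of calls that were higher from 41.99% to 60.4% in C4-2 and from 53.2% to 73.9% in HEK293T with siFBL, and moved the median gene by 0.17 in both. By hour it moved that share from 19.0%, 23.6% and 20.4% to 48.7%, 44.7% and 54.3% at 0, 6 and 12 h in C4-2, and from 53.5%, 50.3%, 58.1% and 59.4% to 68.0%, 82.3%, 80.8% and 71.5% at 0, 6, 12 and 24 h with siFBL in HEK293T. With siNOP56 it moved from 64.3%, 53.9% and 67.4% to 50%, 69.0% and 46.5% at 0, 6 and 24 h. For slopes it moved from 45.2% and 45.3% to 0.234% and 0.315% with siCTRL and siFBL in C4-2 and from 43.5%, 43.5% and 42.9% to 7.28%, 6.32% and 5.84% with siCTRL, siFBL and siNOP56 in HEK293T, and between the cell lines from 48.8% to 29.95%. DESeq2 moved it from 24.98%, 23.6% and 20.4% to 41.7%, 42.6% and 32.8% at 3, 6 and 12 h in C4-2, and RLE factors to 37.3% at 6 h. In SLAM-seq it moved from 36.4% to 51.5% with DESeq2, 56.9% without the filter and 51.0% with header hours. SNORD17 in siFBL libraries of C4-2 rests on 4 to 46 counts, which limits its hourly values.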
